A study of Mus musculus with 9 samples.

Results

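The genes described here encode receptors for neurotransmitters, and they were examined as places where RING1B was found by ChIP-seq in mouse embryonic stem cells (mESCs). Members are RING1B peaks whose nearest gene, as the authors assigned it, carries a receptor name prefix (Gabr, Gabbr, Gria, Grid, Grik, Grin, Grm, Glra, Htr, Chrn, Chrm, Drd, Adra or Adrb, with Grid, Grin, Grm and Htr followed by a digit). The rule used gene names only and no measured value. It found 56 of the 4157 peaks in the 2 deposited lists, 19 of 1810 in Eed-/- mESCs and 37 of 2347 in Eed+/+ mESCs. These peaks fell at 37 receptor genes, of which 17 had a peak in both lists, 2 in the Eed-/- list only and 18 in the Eed+/+ list only.

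Eed-/- mESCs lack EED, a core subunit of the Polycomb repressive complex PRC2, and with it the histone mark H3K27me3, whereas Eed+/+ mESCs are wild type. Both are labelled C57BL/6 and were cultured with LIF on gelatin and inactivated feeder fibroblasts, with the feeders removed by pre-plating before the cells were fixed with EGS and formaldehyde. The comparison asks how much RING1B stays at its targets once H3K27me3 is gone. The Eed-/- list comes from 3 sequenced samples that the labels number as replicates and the study describes as lanes, the Eed+/+ list from 1, and each list is 1 pooled call, so no value below has a replicate error and no test between genotypes was possible. Of 6 genes of embryonic stem cell identity, Esrrb was the nearest gene of a peak in both lists, 60.7 kb away in Eed-/- and 61.1 kb away in Eed+/+, Sox2 was that of an Eed-/- peak 14.3 kb away, and Pou5f1, Nanog, Zfp42 and Klf4 had none, and since a peak list holds no expression the cell type itself was not tested.

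RING1B is the enzyme of the Polycomb complex PRC1 that adds ubiquitin to histone H2A, and PRC1 and PRC2 keep genes of differentiated tissues silent in mESCs, mostly at CpG islands. Neurotransmitter receptors are such tissue genes, used mainly in neurons, muscle, heart and glands. Ionotropic receptors are ion channels opened by the transmitter and built from several subunits, each with its own gene. G-protein-coupled receptors signal through G proteins and are mostly encoded by 1 gene each.

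The sequences before receptor genes range widely in CpG density, with or without a peak, and 5 upstream regions show part of that range. Each is the 200 bases just before the start site that the GENCODE M1 annotation of mm9 gives for the gene, written 5′ to 3′ on the gene's strand, with CG dinucleotides in capitals. Adrb1 (chr19:56796662-56796861, + strand) and Gabra5 (chr7:64765380-64765579, - strand) had overlapping peaks in both genotypes. Grin2b (chr6:136123530-136123729, - strand) and Drd4 (chr7:148477729-148477928, + strand) had one in Eed+/+ only, and Glra4 (chrX:133314681-133314880, - strand) had none. They were chosen after their values were seen. Glra4, the only gene here without a peak, had the lowest CpG ratio about the start site of all receptor genes (0.10). Genes without a peak reached 0.98, so Glra4 does not stand for them.
Adrb1: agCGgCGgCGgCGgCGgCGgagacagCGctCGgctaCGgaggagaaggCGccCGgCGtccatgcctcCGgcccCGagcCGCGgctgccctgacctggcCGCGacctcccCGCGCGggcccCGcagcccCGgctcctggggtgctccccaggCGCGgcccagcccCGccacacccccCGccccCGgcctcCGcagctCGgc
Gabra5: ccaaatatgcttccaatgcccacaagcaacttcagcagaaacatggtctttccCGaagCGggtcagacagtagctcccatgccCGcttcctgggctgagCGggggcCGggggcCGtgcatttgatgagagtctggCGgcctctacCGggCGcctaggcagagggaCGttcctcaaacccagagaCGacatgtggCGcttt
Grin2b: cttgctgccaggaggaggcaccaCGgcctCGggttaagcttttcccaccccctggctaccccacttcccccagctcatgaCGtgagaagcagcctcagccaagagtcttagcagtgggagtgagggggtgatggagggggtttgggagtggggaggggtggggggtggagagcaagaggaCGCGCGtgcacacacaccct
Drd4: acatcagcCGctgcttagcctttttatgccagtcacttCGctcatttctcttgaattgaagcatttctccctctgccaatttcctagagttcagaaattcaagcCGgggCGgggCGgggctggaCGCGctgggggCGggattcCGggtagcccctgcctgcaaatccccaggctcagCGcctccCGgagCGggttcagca
Glra4: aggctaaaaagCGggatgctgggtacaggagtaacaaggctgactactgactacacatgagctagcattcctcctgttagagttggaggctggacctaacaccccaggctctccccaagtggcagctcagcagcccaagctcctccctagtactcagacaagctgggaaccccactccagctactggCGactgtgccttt

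The Adrb1 region held 30 CG dinucleotides, against a median of 7 over the 70051 regions of this length before annotated protein-coding start sites, 92.2% of which held at least 1. Gabra5 and Drd4 held 12 each, Grin2b 6 and Glra4 2. The Adrb1 and Gabra5 regions lay inside the peaks of both genotypes.

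RING1B was found at a larger share of receptor genes than of genes in general, which was described and not tested. A peak was assigned to 37 of 100 annotated receptor genes (37%, exact 95% interval 27.6 to 47.2), beside 9.85% of 22225 protein-coding genes. In Eed-/- mESCs 19 receptor genes had a peak, beside 6.75% of all genes, and in Eed+/+ mESCs 35 did, beside 8.1%. Peaks in both lists were found at 17 receptor genes, beside 5% of all genes. The prefixes also match Adrbk1, Adrbk2 and Grid2ip, which encode no receptor and had no peak. Intervals given for shares of genes cover counting error only. A gene with no peak was below the peak threshold, which does not show that it was free of RING1B.

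Of the G-protein-coupled receptor genes, 22 of 41 had a peak (53.7%, 37.4 to 69.3), against 15 of 59 ionotropic receptor genes (25.4%, 15 to 38.4). In Eed-/- mESCs the counts were 10 of 41 and 9 of 59, and in Eed+/+ mESCs 22 of 41 and 13 of 59. The difference between the kinds in the Eed-/- list was therefore smaller than in the Eed+/+ list, and neither was tested. Of the receptor genes with a start site on a CpG island, 18 of 29 G-protein-coupled ones (62.1%, 42.3 to 79.3) and 12 of 31 ionotropic ones (38.7%, 21.9 to 57.8) had a peak.

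Among ionotropic classes, peaks were assigned to 3 of 5 kainate receptor genes (Grik1, Grik3 and Grik4) and 4 of 7 NMDA receptor genes (Grin2a, Grin2b, Grin2c and Grin3a). The GABA-A receptor genes Gabra2, Gabra4 and Gabra5 and the delta glutamate receptor gene Grid1 had peaks too. Grik2 and Grik5 among the kainate receptors and Grin1, Grin2d and Grin3b among the NMDA receptors had none. Grin1 encodes the subunit that every NMDA receptor needs. The genes with peaks encode subunits that vary between receptors, but so do Grin2d and Grin3b, which had no peak. Of 16 nicotinic acetylcholine receptor genes only Chrna10 and Chrnd had a peak, each in the Eed+/+ list alone. No peak was assigned to the 4 AMPA receptor genes (Gria1, Gria2, Gria3 and Gria4), the 4 glycine receptor genes (Glra1, Glra2, Glra3 and Glra4) or the 2 genes of the serotonin-gated channel (Htr3a and Htr3b). In these last classes, 3 AMPA receptor genes started on a CpG island and none of the glycine receptor or serotonin-gated channel genes did.

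Among G-protein-coupled classes, 5 of 6 alpha adrenergic receptor genes had a peak (Adra1a, Adra1d, Adra2a, Adra2b and Adra2c, with Adra1b the exception). The beta adrenergic receptor genes Adrb1 and Adrb3 had one as well. The same held for 3 of 5 muscarinic receptor genes (Chrm2, Chrm3 and Chrm4, not Chrm1 or Chrm5) and 2 of 5 dopamine receptor genes (Drd4 and Drd5, not Drd1a, Drd2 or Drd3). Of the GABA-B receptor genes Gabbr2 had a peak and Gabbr1 did not. Peaks were assigned to 5 of 12 serotonin receptor genes outside the channel class (Htr1a, Htr1b, Htr5b, Htr6 and Htr7). Peaks were assigned to the metabotropic glutamate receptor genes Grm4, Grm6, Grm7 and Grm8. These are the members of group III, which sit mostly on nerve terminals, except Grm6, which works in retinal bipolar cells. Grm2, Grm3 and Grm5, which belong to the other groups, had none. This grouping was noticed after the values were seen and was not tested. Grm4, Grm6, Grm7 and Grm8 all started on a CpG island, whereas of Grm2, Grm3 and Grm5 only Grm2 did.

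**Figure D1:**
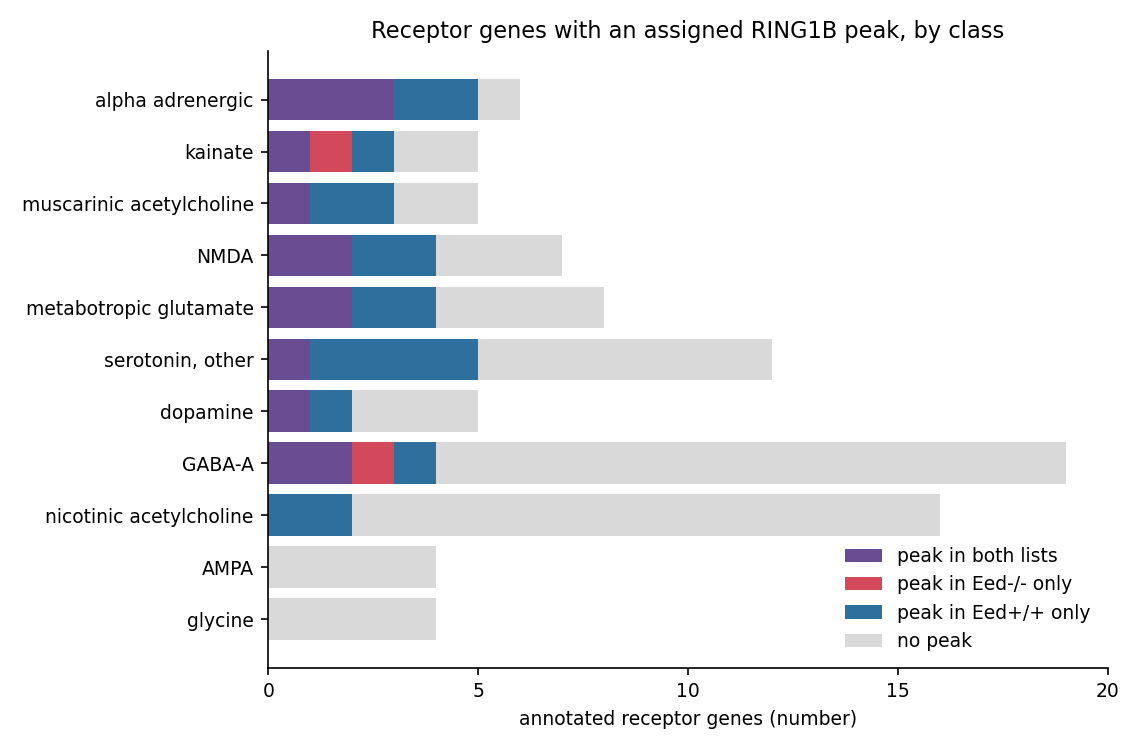
Number of annotated receptor genes in each class (horizontal axis), split by colour into genes with an assigned RING1B peak in both lists, in Eed-/- only, in Eed+/+ only, or in none, for classes of at least 4 genes ordered by the share with a peak. The alpha adrenergic class has the highest share (5 of 6), and the AMPA and glycine classes have no peak.

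Most receptor peaks of Eed-/- mESCs were also present in Eed+/+ mESCs, whereas fewer than 1 in 2 receptor peaks of Eed+/+ mESCs were found in Eed-/- mESCs. An Eed+/+ peak overlapped 16 of 19 Eed-/- receptor peaks by at least 1 bp (84.2%, exact 95% interval 60.4 to 96.6), beside 73.1% of all Eed-/- peaks. An Eed-/- peak overlapped 16 of 37 Eed+/+ receptor peaks (43.2%, 27.1 to 60.5), beside 53.1% of all Eed+/+ peaks. Both backgrounds lie inside the receptors' intervals. By kind, 10 of 10 Eed-/- peaks at G-protein-coupled receptor genes and 6 of 9 at ionotropic receptor genes were overlapped. The 3 Eed-/- peaks without an Eed+/+ counterpart were all at ionotropic receptor genes, Grik4 and Grin2c among them. For the Eed+/+ list the counts were 10 of 23 and 6 of 14. When peaks above an FDR of 1% were dropped, 9 Eed-/- receptor peaks were left and 24.3% of the Eed+/+ ones were overlapped. With only Eed-/- peaks whose tags would exceed 100 at the Eed+/+ depth, 3 were left and 8.11% were overlapped, so these counts move with depth and threshold. Overlap over all peaks was not computed at these settings, so whether the drop is particular to receptors was not tested.

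The RING1B level was lower in Eed-/- at every one of the 16 overlapping pairs, a direction that the calling thresholds largely fix. The level used here counts tags in each kb of a peak per 1000000 mapped tags of the library, with no input subtracted. Its median over the pairs was 1.29 in Eed-/- and 6.57 in Eed+/+, and the Eed-/- level divided by the Eed+/+ level had a median of 0.183 (middle 50% of pairs 0.160 to 0.203). All 1247 pairs in the lists (100%) were likewise lower in Eed-/-. Their median ratio was 0.225 (0.179 to 0.303), with median levels of 1.33 in Eed-/- and 5.78 in Eed+/+. The ratio was under 0.225, the value that splits all pairs evenly, at 14 of the 16 receptor pairs. Its 95% counting interval lay below 0.225 at 9 pairs, held it at 5 and lay above it at 2, Drd5 and Gabra4. Intervals were not counted over all 1247 pairs, so whether these counts are particular to receptors was not tested. A peak of 100 tags, the minimum of the lists, has a median level of 1.79 at the widths and depth of the 16 Eed+/+ peaks. The Eed-/- level lay below this minimum for its Eed+/+ partner at 13 of the 16 pairs, all but Adra2c, Adrb1 and Grid1, so at those 13 the Eed+/+ level could only be the higher one. Each level was also taken over its own called width, which differs between the lists. Fewer alleles bound by RING1B and less RING1B at each allele cannot be told apart in such pooled chromatin.

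The levels ran from 1.02 at Chrm3 to 2.16 at Adra2c in Eed-/-, a 2.12-fold range, and from 3.66 at Gabra4 to 11.2 at Adrb1 in Eed+/+, a 3.06-fold range. The 4 highest Eed+/+ levels were all at adrenergic receptor genes (Adrb1, Adra2c, Adra2a and Adra1d). Eed-/- levels are bounded from below by the peak threshold, and the lowest level of any Eed-/- peak was 0.849. The part of that threshold in the narrower range was not tested.

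**Figure D2:**
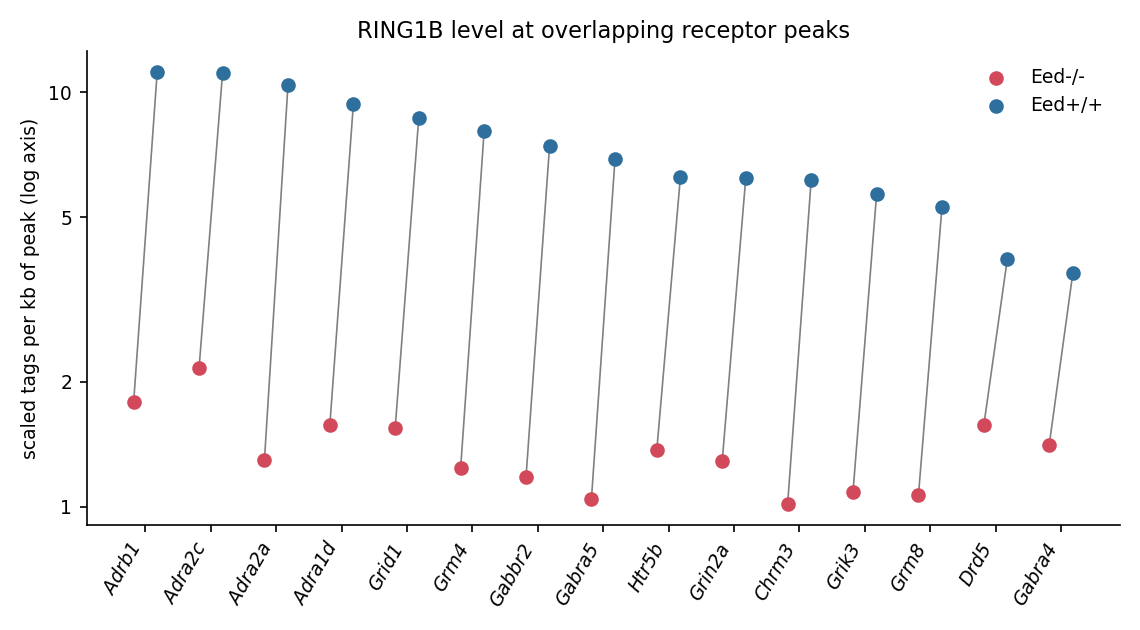
RING1B level (tags per kb of peak per 1000000 mapped tags, log axis) at 15 of the 16 receptor peaks that overlap between genotypes, with Eed-/- (red) left of Eed+/+ (blue) for each gene and genes ordered by the Eed+/+ level. Every red point lies below its blue partner, and all Eed-/- levels lie between 1.02 and 2.16.

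The adrenergic receptors bind adrenaline and noradrenaline, and 4 of their genes held the highest Eed+/+ levels of the pairs. Adra1a, Adrb3 and Adra2b, with a peak in Eed+/+ alone, had levels of 2.91, 3.47 and 5.97. Every Eed+/+ peak of the pairs described from here on had an FDR of 0% in the deposited list, and fold enrichment is the deposited ratio of tags over local background. Adrb1 encodes the Gs-coupled receptor that drives the heart rate. Its Eed-/- peak (chr19:56794741-56798576, 3836 bp) had 482 tags, 7.13-fold enrichment, an FDR of 0.62% and a level of 1.79. Its Eed+/+ peak (chr19:56794526-56798983, 4458 bp) had 838 tags, 37.9-fold enrichment and a level of 11.2. The ratio was 0.160 (95% counting interval 0.143 to 0.179). The Eed-/- peak lay wholly inside the Eed+/+ one, and the 2 summits, 39 bp apart, fell in the coding exon.

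Adra2a and Adra2c encode Gi-coupled receptors through which noradrenaline limits its own release. At Adra2a the Eed-/- peak (chr19:54119439-54123180, 3742 bp) had 341 tags, 4.15-fold enrichment, an FDR of 1.54% and a level of 1.30. The Eed+/+ peak (chr19:54119179-54122521, 3343 bp) had 585 tags, 25.7-fold enrichment and a level of 10.4. This was the lowest ratio among the receptor pairs, 0.124 (0.109 to 0.143), with 2.89% of all pairs at or below it. At Adra2c the Eed-/- peak (chr5:35620501-35624217, 3717 bp) had 564 tags, 5.67-fold enrichment, an FDR of 0.54% and a level of 2.16. The Eed+/+ peak (chr5:35620900-35624550, 3651 bp) had 684 tags, 18.5-fold enrichment and a level of 11.1. Adra2c thus had the highest Eed-/- level and the most tags of the Eed-/- receptor peaks, and its ratio was 0.194 (0.173 to 0.217). At both genes the summits lay in the coding exon in both genotypes.

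Adra1d, a Gq-coupled receptor of smooth muscle, had 1 Eed-/- peak and 2 Eed+/+ peaks. The Eed-/- peak (chr2:131386577-131388753, 2177 bp) had 241 tags, 4.43-fold enrichment, an FDR of 0.73% and a level of 1.57. The Eed+/+ peak at the same start site (chr2:131386027-131389644, 3618 bp) had 570 tags, 19.1-fold enrichment and a level of 9.37. The ratio was 0.168 (0.144 to 0.196), and the Eed-/- summit lay 388 bp upstream of the start site, against 328 bp downstream in Eed+/+. The second Eed+/+ peak (chr2:131371277-131373273, 102 tags, level 3.04) lay at the far end of the gene, over a coding exon and a CpG island, 13304 bp from the nearest Eed-/- peak.

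Drd5, the Gs-coupled D5 dopamine receptor, had the highest ratio of the receptor pairs, 0.396 (0.326 to 0.482). In Eed-/- the peak (chr5:38710179-38712319, 2141 bp) had 237 tags, 4.92-fold enrichment, an FDR of 1.23% and a level of 1.57. Its Eed+/+ peak (chr5:38709428-38712272, 2845 bp) had 190 tags, 9.63-fold enrichment and a level of 3.97. The Eed-/- level was close to that of Adra1d, whereas the Eed+/+ level was the second lowest of the pairs.

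Chrm3, the Gq-coupled muscarinic receptor of glands and smooth muscle, had the highest fold enrichment of the receptor peaks in both lists, 7.72 in Eed-/- and 55.7 in Eed+/+. The peak in Eed-/- (chr13:10359135-10360660, 1526 bp) had 109 tags, an FDR of 1.21% and a level of 1.02, the lowest level among the Eed-/- receptor peaks. Its Eed+/+ peak (chr13:10358283-10360854, 2572 bp) had 266 tags and a level of 6.15, and the ratio was 0.165 (0.131 to 0.207). The local background that enters fold enrichment was not examined. By the authors' RefSeq models the peak centres lay 151 bp (Eed-/-) and 480 bp (Eed+/+) from the first exon, but the GENCODE M1 model of Chrm3 holds a start site no nearer than 480806 bp from the Eed-/- peak and 479954 bp from the Eed+/+ peak, so Chrm3 counts as away from a start site below.

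Htr5b encodes a serotonin receptor that is intact in mice. Here the Eed-/- peak (chr1:123423638-123425862, 2225 bp) had 215 tags, 7.03-fold enrichment, an FDR of 0.57% and a level of 1.37. Its Eed+/+ peak (chr1:123423698-123425050, 1353 bp) had 142 tags, 29.0-fold enrichment and a level of 6.24. The Eed+/+ peak was the narrowest of the Eed+/+ receptor peaks and lay inside the wider Eed-/- peak, and the ratio was 0.220 (0.177 to 0.274).

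Gabbr2 encodes the GABA-B subunit that couples to G proteins and pairs with the subunit of Gabbr1, which had no peak. The Gabbr2 peak in Eed-/- (chr4:47002300-47005936, 3637 bp) had 302 tags, 4.70-fold enrichment, an FDR of 1.2% and a level of 1.18. The one in Eed+/+ (chr4:47002915-47005836, 2922 bp) had 365 tags, 23.1-fold enrichment and a level of 7.43, for a ratio of 0.159 (0.136 to 0.186).

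Grm4 and Grm8 were the 2 metabotropic glutamate receptor genes of group III with peaks in both lists. At Grm4 the Eed-/- peak (chr17:27646665-27652279, 5615 bp) had 489 tags, 5.94-fold enrichment, an FDR of 0.45% and a level of 1.24. The Eed+/+ peak (chr17:27647536-27651874, 4339 bp) had 590 tags, 35.5-fold enrichment and a level of 8.09. Grm4 thus had the widest Eed-/- receptor peak, with the Eed+/+ peak wholly inside it, and a ratio of 0.153 (0.136 to 0.173). At Grm8 the Eed-/- peak (chr6:28083547-28086066, 2520 bp) had 189 tags, 4.2-fold enrichment, an FDR of 1.49% and a level of 1.07. The Eed+/+ peak (chr6:28082317-28086209, 3893 bp) had 346 tags, 19.2-fold enrichment and a level of 5.29. The ratio was 0.202 (0.168 to 0.242), and the summits lay 1355 bp apart, the largest shift of the pairs, upstream of the start site in Eed-/- and inside an intron in Eed+/+.

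The ionotropic receptor genes with overlapping peaks included Gabra4, Gabra5, Grid1, Grik3 and Grin2a. Gabra4 and Gabra5 encode alpha subunits of GABA-A receptors, the chloride channels of fast inhibition. At Gabra4 the Eed-/- peak (chr5:72048556-72049885, 1330 bp) had 132 tags, 7.10-fold enrichment, an FDR of 0.63% and a level of 1.41. The Eed+/+ peak (chr5:72047703-72049718, 2016 bp) had 124 tags, 19.4-fold enrichment and a level of 3.66. Its ratio of 0.386 (0.30 to 0.497) was the highest after Drd5, and its Eed+/+ level was the lowest of the pairs. At Gabra5 the Eed-/- peak (chr7:64763352-64765965, 2614 bp) had 192 tags, 5.05-fold enrichment, an FDR of 1.5% and a level of 1.04. The Eed+/+ peak (chr7:64763616-64765807, 2192 bp) had 254 tags, 23.0-fold enrichment and a level of 6.89. The ratio was 0.152 (0.125 to 0.183) and both summits lay in an intron, 55 bp apart.

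Grid1 encodes a delta glutamate receptor, a relative of the glutamate-gated channels that organises synapses. At Grid1 the Eed-/- peak (chr14:35632094-35634886, 2793 bp) had 305 tags, 5.59-fold enrichment, an FDR of 0.52% and a level of 1.55. The Eed+/+ peak (chr14:35630715-35636885, 6171 bp) had 902 tags, 27.6-fold enrichment and a level of 8.69. This was the widest of the Eed+/+ receptor peaks and had the most tags, the Eed-/- peak lay inside it, and the ratio was 0.179 (0.156 to 0.204).

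Grik3 encodes a kainate receptor subunit and Grin2a a glutamate-binding subunit of NMDA receptors. At Grik3 the Eed-/- peak (chr4:125166842-125170762, 3921 bp) had 300 tags, 4.92-fold enrichment, an FDR of 0.7% and a level of 1.09. The Eed+/+ peak (chr4:125166531-125169829, 3299 bp) had 315 tags, 22.9-fold enrichment and a level of 5.68. The ratio was 0.192 (0.163 to 0.225), and both summits lay in an intron. At Grin2a the Eed-/- peak (chr16:9991986-9996370, 4385 bp) had 398 tags, 4.05-fold enrichment, an FDR of 0.76% and a level of 1.29. The Eed+/+ peak (chr16:9991807-9996286, 4480 bp) had 469 tags, 15.7-fold enrichment and a level of 6.23. The 2 peaks covered nearly the same span with 4301 bp in common, but the summits lay 1282 bp apart, in an intron in Eed-/- and upstream of the gene in Eed+/+, and the ratio was 0.207 (0.181 to 0.237).

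**Figure D3:**
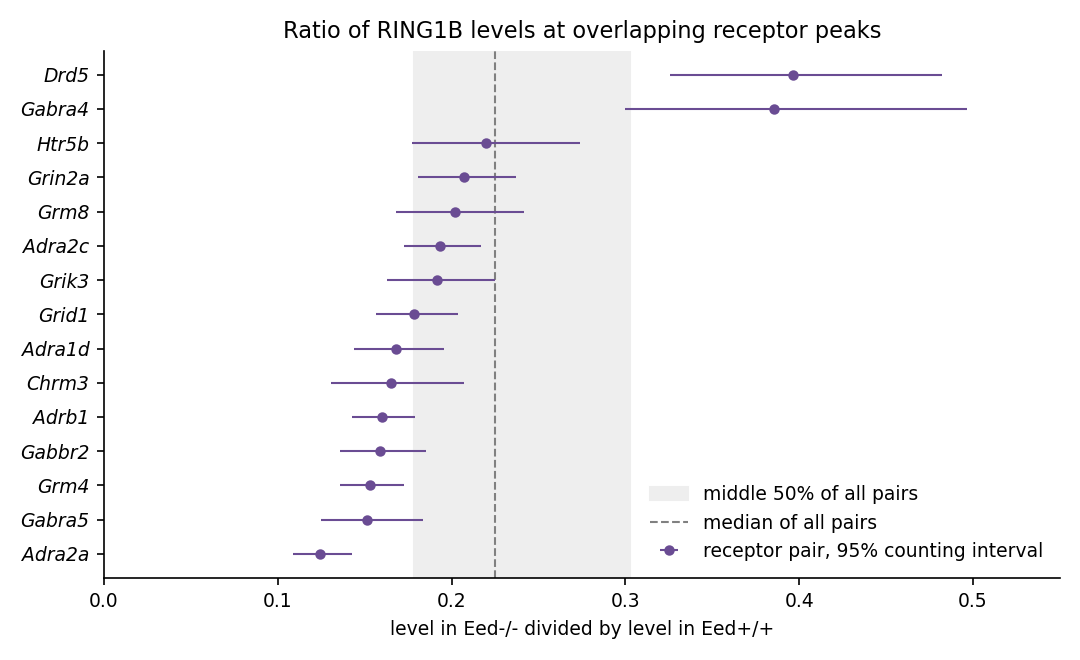
Ratio of the RING1B level in Eed-/- to that in Eed+/+ (horizontal axis) at 15 of the 16 overlapping receptor peaks, with exact 95% counting intervals as bars. The grey band and dashed line mark the middle 50% and the median (0.225) of all 1247 pairs, and Drd5 and Gabra4 stand to the right while the other 13 ratios drawn lie between 0.124 and 0.220.

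Among the Eed-/- peaks with no Eed+/+ peak over them were those of Grik4 and Grin2c. Grik4 encodes a high-affinity kainate receptor subunit. The Grik4 peak (chr9:42750784-42752489, 1706 bp) began 87 bp inside the gene with 139 tags, 3.64-fold enrichment, an FDR of 1.5% and a level of 1.16. It had the lowest fold enrichment of the Eed-/- receptor peaks. Its FDR was close to the median of the Eed-/- list, 1.46%.

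Grin2c, an NMDA receptor subunit gene used in the cerebellum, had a peak in each list but at different places. Its Eed-/- peak (chr11:115118784-115119920, 1137 bp) was the narrowest of the Eed-/- receptor peaks and lay 8637 to 9773 bp inside the gene, with its summit in a coding exon, 139 tags, 5.37-fold enrichment, an FDR of 1.43% and a level of 1.74. One Eed+/+ peak (chr11:115126664-115128861, 2198 bp) spanned the start site with 207 tags, 18.95-fold enrichment and a level of 5.60. The other (chr11:115110254-115112888, 2635 bp) covered the end of the gene with 235 tags, 13.5-fold enrichment and a level of 5.30. The Eed-/- peak thus lay between the 2 Eed+/+ peaks, 5896 bp from one and 6744 bp from the other, and all 3 touched a CpG island.

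Eed+/+ receptor peaks without an Eed-/- partner were lower than those with one. The 21 without had a median fold enrichment of 14.5, 156 tags and a level of 4.58, and the 16 with had 22.9, 355.5 tags and a level of 6.57. Over all Eed+/+ peaks the medians were 13.3, 161 tags and 4.03 without a partner, and 19.7, 288 tags and 5.78 with one, so this order was not particular to receptors. If the 21 levels are multiplied by the median ratio of the receptor pairs, 0.183, they span 0.439 to 1.31, and 11 of the 21 fall under 0.849, the lowest level of any Eed-/- peak. The same product falls under it at 2 of the 16 Eed+/+ peaks that had a partner. The ratio 0.183 comes only from pairs whose Eed-/- peak was called, and 0.849 is the lowest called level, not a set threshold. The products therefore cannot show how many of the 21 sites kept RING1B below the threshold, which was not tested.

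Of the genes with a peak in Eed+/+ alone, the highest fold enrichments belonged to Grin2b, Grm6, Drd4, Htr1b and Grm7. Grin2b, the NMDA receptor subunit common in early development, had a peak (chr6:136121757-136123822, 2066 bp) with 139 tags, 28.4-fold enrichment and a level of 4.00. Grm6 had one (chr11:50663055-50665526, 2472 bp) with 278 tags, 27.8-fold enrichment and a level of 6.69. The D4 dopamine receptor gene Drd4 had one (chr7:148477510-148481787, 4278 bp) with 412 tags, 24.0-fold enrichment and a level of 5.73, the most tags among the receptor genes found in Eed+/+ alone. The Gi-coupled serotonin receptor gene Htr1b had one (chr9:81525139-81527798, 2660 bp) with 321 tags, 21.1-fold enrichment and a level of 7.18. Its level, the highest of these genes, exceeded the Eed+/+ level of 9 of the 16 pairs. Grm7 had one (chr6:110595048-110597470, 2423 bp) with 154 tags, 19.2-fold enrichment and a level of 3.78. These 5 peaks had an FDR of 0% and spanned the start site of their gene, and the nearest Eed-/- peak was at least 229326 bp away.

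The lowest fold enrichment of this set was that of Adrb3, the beta adrenergic receptor of fat cells, whose peak (chr8:28337459-28339328, 1870 bp) had 109 tags, 6.04-fold enrichment, an FDR of 0.03% and a level of 3.47. The other genes of the set were Grik1, Adra2b, Gabra2, Htr6, Chrm2, Adra1a, Grin3a, Htr7, Chrm4, Htr1a, Chrnd and Chrna10, with fold enrichments between 17.1 (Grik1) and 6.24 (Chrna10). Chrna10 and Chrnd, the only nicotinic members, lay low in this order and neither peak spanned the start site. That of Chrnd lay 3368 to 6097 bp upstream of its start and that of Chrna10 2223 to 4671 bp inside the gene.

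Most receptor peaks lay over the start site of their gene, with the centre slightly inside it. An annotated start site of its own gene lay in 16 of 19 Eed-/- receptor peaks (84.2%, 60.4 to 96.6), with the centre a median of 416.5 bp downstream, and 74.1% of all Eed-/- peaks held a start site. It lay in 31 of 37 Eed+/+ receptor peaks (83.8%, 68.0 to 93.8), with the centre a median of 573 bp downstream, and 72.5% of all Eed+/+ peaks held one. Both backgrounds lie inside the receptors' intervals. The centre was within 1 kb of a protein-coding start site in 15 of 19 Eed-/- receptor peaks (78.9%, 54.4 to 93.9), beside 70.1% of all Eed-/- peaks. It was in 28 of 37 Eed+/+ receptor peaks (75.7%, 58.8 to 88.2), beside 62.6% of all Eed+/+ peaks. A CpG island was touched by 19 of 19 Eed-/- receptor peaks, beside 95.7% of all, and by 36 of 37 Eed+/+ receptor peaks, beside 95.3%, with Adra1a the exception.

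**Figure D4:**
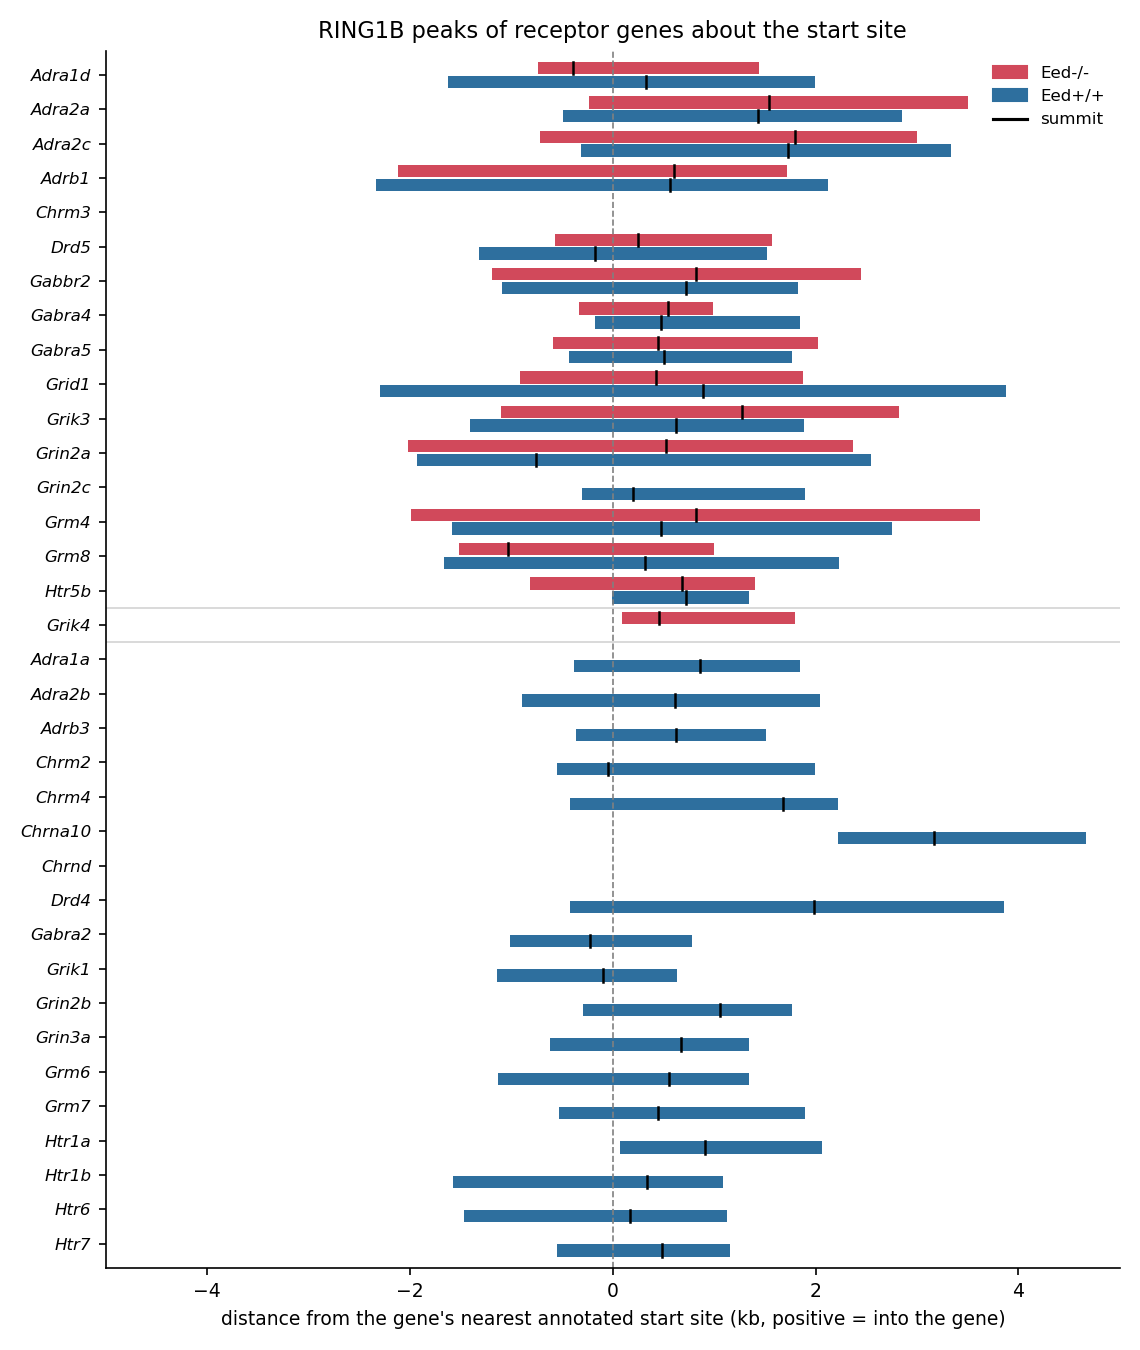
Span of each receptor peak (bar) and its summit (black tick) relative to the nearest annotated start site of its own gene, in kb along the gene, with Eed-/- (red) above Eed+/+ (blue). Grey lines separate genes with peaks in both lists, in Eed-/- only and in Eed+/+ only. The 6 peaks that reach farther than 5 kb from the start site (both of Chrm3 and those of Chrnd, Adra1d and Grin2c at other places) are not drawn, and most of the 47 drawn bars cross 0.

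The median width was 2520 bp in Eed-/- (1137 to 5615), beside 2155 bp over all Eed-/- peaks, and 2572 bp in Eed+/+ (1353 to 6171), beside 2665 bp over all Eed+/+ peaks. The Eed-/- peak lay wholly inside the Eed+/+ peak in 6 of 16 receptor pairs (37.5%, all pairs 57.4%). It was the wider of the 2 in 7 of 16 (43.8%, all pairs 23.7%), at Adra2a, Adra2c, Gabbr2, Gabra5, Grik3, Grm4 and Htr5b. No interval was computed for these shares of pairs, so whether they differ from all pairs beyond counting error was not tested. Summits were a median of 103.5 bp apart, beside 97 bp over all pairs. An FDR of 1% or less, a stricter threshold than the deposited one, was met by 9 of 19 Eed-/- receptor peaks (47.4%, 24.4 to 71.1), beside 24.1% of all Eed-/- peaks, and by 37 of 37 Eed+/+ receptor peaks, beside 99.9%. Widths and tag numbers come from libraries of unequal depth, 4.18 times as many mapped tags in Eed-/- as in Eed+/+.

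Start sites of receptor genes with a peak were richer in CpG than those without. The ratio of observed to expected CG dinucleotides was taken within 500 bp of each annotated start site, and the highest of each gene was used. The number of start sites per gene was not adjusted for. The median of this ratio was 0.80 for the 17 genes with peaks in both lists and 0.60 for the 18 genes found in Eed+/+ alone. For the 63 genes with none it was 0.49. The ranges overlapped widely, from 0.23 to 0.96 in the first of these groups and from 0.10 to 0.98 in the last. The 0.23 is that of Chrm3, whose annotated start site is far from its peak, and without Chrm3 the first group had a median of 0.81 and a lowest ratio of 0.42, with 15 of 16 genes on an island. A CpG island within 500 bp of any annotated start site was found for 15 of 17, 13 of 18 and 30 of 63 of these genes. Of the 60 receptor genes on an island 30 had a peak (50%, 36.8 to 63.2), beside 15.5% of all 12717 island genes. Of the 40 off an island 7 did (17.5%, 7.34 to 32.8), beside 2.29% of all 9508 such genes. Htr5b and Grin2b had no island within 500 bp of a start site, with ratios of 0.42 and 0.43, although their peaks touched an island. Gria2, Gria3 and Gria4 had an island there and no peak.

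**Figure D5:**
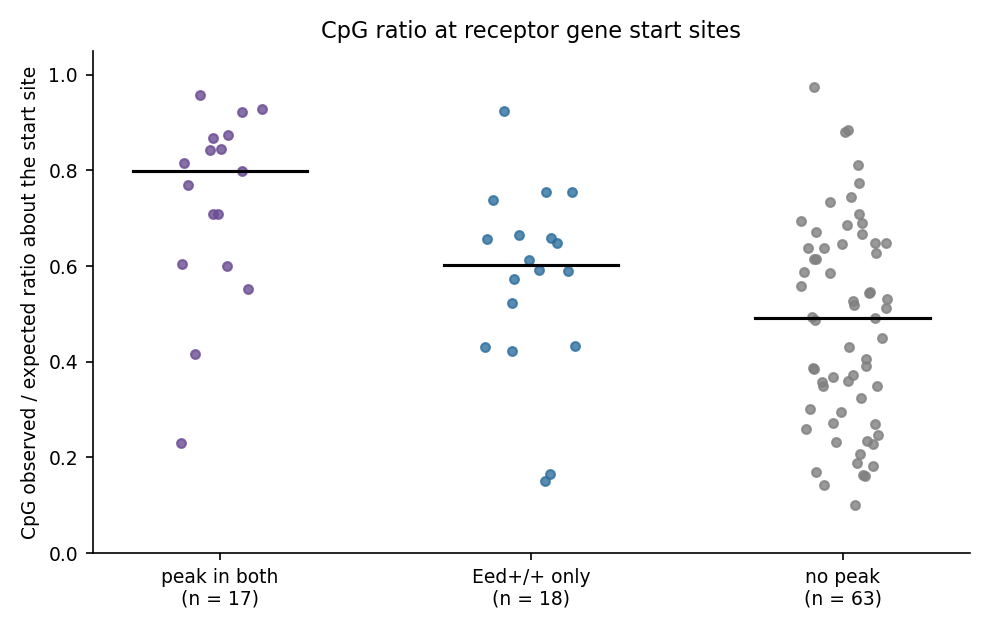
Ratio of observed to expected CG dinucleotides within 500 bp of the start site (vertical axis) for 98 annotated receptor genes. Each value is the highest over the annotated start sites of the gene. Genes are split by the list in which a RING1B peak was assigned, with black lines at the medians. The median falls across genes with peaks in both lists (0.80), in Eed+/+ only (0.60) and in none (0.49), and the groups overlap.

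The RE1 element, the DNA site of REST, a repressor of neuronal genes in non-neuronal cells, was searched because many receptor genes are known REST targets. The search used a left part CAGCACC and a right part GGACAG, 2 bases apart, on both strands, with up to 2 mismatches over these 13 letters in the 3000 bases about the peak centre. A match was found at 8 of 19 Eed-/- receptor peaks (42.1%, 20.3 to 66.5), beside 25.7% of all Eed-/- peaks, and at 13 of 37 Eed+/+ receptor peaks (35.1%, 20.2 to 52.5), beside 26.3% of all. The backgrounds lie inside these intervals. The closest match inside the Eed-/- peak of Grin2c is shown with matching letters in capitals.
Grin2c: CAGCACCttGaACAG

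The Grin2c match (chr11:115119614-115119628, + strand) had 1 mismatch and lay inside the peak, 151 bp from its summit. The Eed-/- peak of Grik4, also without an Eed+/+ partner, held one with 2 mismatches (chr9:42751342-42751356, + strand). Such matches describe letters only, and whether REST bound there was not measured.

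Other genes of transmitter signalling were counted from lists chosen with earlier results known, and no intervals were computed for their shares. Of all genes, 6.75% had a peak in Eed-/- and 8.1% had one in Eed+/+. Of 19 transmitter receptor genes outside the name prefixes, 2 had a peak in Eed-/- (Hrh3 and Cnr1, 10.5%) and 3 in Eed+/+ (the same and Adora1, 15.8%). Of 31 genes for transmitter synthesis, vesicle loading and reuptake, 4 had a peak in Eed-/- (12.9%) and 10 in Eed+/+ (32.3%). Only 30 of these 31 names are in the annotation over which the shares of all genes were taken. The 4 were Gad1 and Gad2, which make GABA, Slc32a1, which loads it into vesicles, and Slc6a11, which takes it up again. The 6 found in Eed+/+ alone were Slc17a6, Slc1a2, Slc6a5, Slc18a3, Ache and Slc6a2. Gad1 had a level of 1.36 in Eed-/- and 5.91 in Eed+/+, and Gad2 had a level of 1.79 in Eed-/- and 7.26 in Eed+/+.

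Of 30 genes for receptor scaffolds and auxiliary subunits, 7 had a peak in Eed-/- (23.3%, all genes 6.75%) and 9 in Eed+/+ (30%, all genes 8.1%), 6 of them in both. These were Shank3, Cacng4, Grip1, Nptx1, Nptx2 and Cnih3. Nptx1, a secreted protein that clusters AMPA receptors, had the highest Eed+/+ level among them, with 1.67 in Eed-/- and 12.0 in Eed+/+.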

How the data were processed

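RING1B was measured by ChIP-seq in Eed-/- and Eed+/+ mESCs, and CBX7 samples were not analysed here. Single-end tags were aligned by the authors to mm9 using bowtie, tags with several positions were dropped, and MACS peaks with an FDR under 2% and over 100 tags were kept. Versions, and the control library for MACS, were not stated in the sources used. The deposited lists, 1 per genotype, give peak positions and other values per peak, namely tag counts, fold enrichment, FDR in percent and the nearest gene from CisGenome and the authors' scripts. Mapped tags, as the study gives them, were 70343706 for Eed-/- RING1B and 16814546 for Eed+/+ RING1B, and levels were scaled by them. Unequal depth and the tag minimum limit which weak sites could be called.

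An overlap required 1 shared bp or more, and where several Eed-/- peaks overlapped an Eed+/+ peak, the one sharing most bases made the pair. Where an interval is given, it is an exact (Clopper-Pearson) 95% interval for shares and an exact conditional binomial interval for ratios. These intervals cover counting error only, as tags are not independent molecules. Start sites came from GENCODE M1 and sequences from NCBIM37 (mm9), where all 37 member genes matched by name. CpG islands were found by a running score of 17 for each CG and −1 for other bases, and kept at 200 bp, 50% GC and a CpG ratio of 0.6. A gene counted as on an island where any of its annotated start sites had an island within 500 bp. Its CpG ratio was the highest over its start sites. No test between genotypes was made.

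Some genes and 1 upstream region are not reported here, and every other gene with a peak is named. Full values go to genes with overlapping peaks, to Eed-/- peaks without an Eed+/+ partner, and to Eed+/+-only peaks with the 5 highest and the lowest fold enrichment. Members, lists and alternatives were chosen with earlier results of these data known. Alternatives changed the overlap, the FDR, the tag minimum, the gene assignment, the distance, the peaks per gene and the level. The overlap and island code was checked on simulated data. Python 3.11.15, numpy 2.4.6, scipy 1.17.1, numba 0.67.0 and matplotlib 3.10.9 were used.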

Additional observations from a re-analysis of the deposited data

How the results depend on the processing

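Of 44 values recomputed under alternatives, 37 stayed within 1.5 times (counts), within their counting interval (shares) or within the middle 50% of the values (medians), 7 moved and 0 reversed. Only the median level ratio could count as reversed, and its direction is largely fixed by the calling thresholds. Reassigning genes by nearest start site, or dropping prefix matches that encode no receptor, changed no member. The values under these alternatives could therefore not move, and they make up a large part of the 37 that stayed. All Eed+/+ receptor peaks already met an FDR of 1%, so their number, position and width could not move under that limit. Summing over every overlapping Eed-/- peak could not move the ratio either, as each pair held only 1. With an FDR of 1% or less, 9 Eed-/- receptor peaks were left, all of them (100%) overlapped by an Eed+/+ peak, and 24.3% of Eed+/+ receptor peaks were overlapped. With only Eed-/- peaks whose tags would exceed 100 at the Eed+/+ depth, 3 were left (Adra2c, Adrb1 and Grm4), again with 100% overlapped, and 8.11% of Eed+/+ receptor peaks were overlapped. The fold enrichments gave a median ratio of 0.219 in place of 0.183, beside 0.248 in place of 0.225 over all pairs. The other receptor ratios ran from 0.160 to 0.192. The checks of peak width were added after seeing the data. No paired analysis was possible because the lists hold 1 pooled call per genotype, and for the same reason no sample could be left out. The number of called Eed-/- peaks and the overlap counts therefore depend on thresholds and depth. The overlap shares of all peaks were not computed under these alternatives.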
